A study of Arabidopsis thaliana with 10 samples.

Results

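Glutathione transferases of the tau and phi classes were examined in roots of Arabidopsis thaliana. The set held 39 genes, 28 tau genes (GSTU1 to GSTU28) and 11 phi genes (GSTF2, GSTF3 and GSTF6 to GSTF14), of 27826 genes in the deposited table. Members were chosen by locus code from the family names, and every one had a row. The family itself was selected with the genotype difference on these arrays already known, so that difference is given here as a description. The arrays compared mcu123, given in the labels as a knockout of 3 MCU genes, with the Col-0 wild type, on 5 arrays each. MCU proteins form the pore of the mitochondrial calcium uniporter. Roots of both genotypes came from 20-day-old seedlings in sterile hydroponic culture, with no other treatment, and each array held RNA from pooled roots cut from the shoot. The labels name no allele and do not say whether the pools came from separate cultures, so the errors measure the spread between these pools, which may be technical.

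Glutathione transferases join the tripeptide glutathione to reactive or foreign compounds, or use it to reduce peroxides, and the conjugates are then pumped into the vacuole. The tau and phi classes are the large plant-specific classes and are known for herbicide detoxification and for rapid induction by stress and by oxylipins, lipid-derived signals that include jasmonate precursors. Many tau and phi genes lie next to each other as tandem duplicates. In bulk roots, fewer cells of a type and less RNA per cell cannot be told apart.

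The values are log2 intensities after RMA, which equalises the arrays, so a shift shared by all genes cannot be read from them. The median log2 intensity of the table was 4.30. Correlations between arrays lay between 0.966 and 0.991 within a genotype and between 0.969 and 0.990 across genotypes. Of the targeted genes, MCU1 and MCU3 were lower in mcu123: MCU1 averaged 2.87 ± 0.16 in mcu123 and 4.52 ± 0.23 in Col-0, and MCU3 4.14 ± 0.28 in mcu123 and 6.12 ± 0.22 in Col-0 (log2 intensity, SD, n = 5 each). Both passed the limma test at an adjusted p of 4.0e-04. MCU2 averaged 2.77 ± 0.27 in mcu123 and 2.86 ± 0.29 in Col-0, and where its probes lie relative to the mutation is not given in the sources used here. All 8 root marker genes had a mean above the table median, with summed log2 levels of 55.7 to 58.7 over mcu123 arrays and 58.1 to 59.9 over Col-0 arrays. Their median log2 difference was -0.11, with 3 higher and 5 lower means in mcu123 and a range from -0.85 to 0.28. The 2 of smallest p, CASP4, of the endodermal barrier, and SUC2, of phloem companion cells, had log2 differences of -0.43 and -0.85 without overlap between the groups (limma adjusted p = 0.30 and 0.61). They made up 25.0% of the root markers, where 1.02% of all genes were lower without overlap. SUC2 averaged 4.77 ± 0.87 in mcu123 and 5.62 ± 0.29 in Col-0 (SD), a wide spread in mcu123. Of 8 photosynthetic shoot markers 6 lay below the table median, and their summed log2 level ran from 20.3 to 28.0 over mcu123 arrays and from 19.0 to 25.1 over Col-0 arrays, with log2 differences of 0.47 for RBCS1A and -0.23 for RCA. The 5 nitrate and nitrogen markers had a median log2 difference of 0.26, which was -0.14 without mcu123 replicate 3. With all arrays the median was that of an ammonium transporter gene (AT1G64780), at 4.86 ± 1.87 in mcu123 and 4.60 ± 0.62 in Col-0. In this list the 2 genes of smallest p, the nitrate reductase genes NIA2 and NIA1, were at 0.54 and 0.84 (limma adjusted p = 0.46 and 0.63). NIR1 was at 0.05 and NRT2.1 at -0.02. The part of cell makeup or nitrogen state in the results below was not tested. Replicate 3 of mcu123 stood apart: 5.28% of all genes lay 2-fold or more away from the average of its 4 fellow arrays, against 0.381% to 2.32% for each other array.

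One gene stood out in the family. GSTU5 (AT2G29450), a tau gene in the 7-gene cluster on chromosome 2, had log2 intensities of 3.67, 1.67, 3.34, 3.10 and 2.05 in mcu123 replicates 1 to 5. In Col-0 replicates 1 to 5 it had 5.64, 4.93, 5.85, 4.40 and 6.37. Every mcu123 array lay below every Col-0 array, with a gap between 3.67 and 4.40. The means were 2.77 ± 0.86 in mcu123 and 5.44 ± 0.78 in Col-0 (SD, n = 5 each), a log2 difference of -2.67 (SE 0.43, 95% interval -3.60 to -1.74), or 6.36-fold lower in mcu123. This was the largest difference of either sign among all 27826 genes, larger than those of the targeted MCU genes. By p-value GSTU5 ranked 16th, with a wide spread within each genotype (SD 0.86 in mcu123 and 0.78 in Col-0), and it did not pass (limma adjusted p = 0.065, and 0.027 to 0.19 over the alternative fits). It passed in 3 of 16 alternative fits, with a trended and robust prior, with array weights and without mcu123 replicate 1. The mcu123 values lay below the table median, where signal and background could not be separated.

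**Figure D1:**
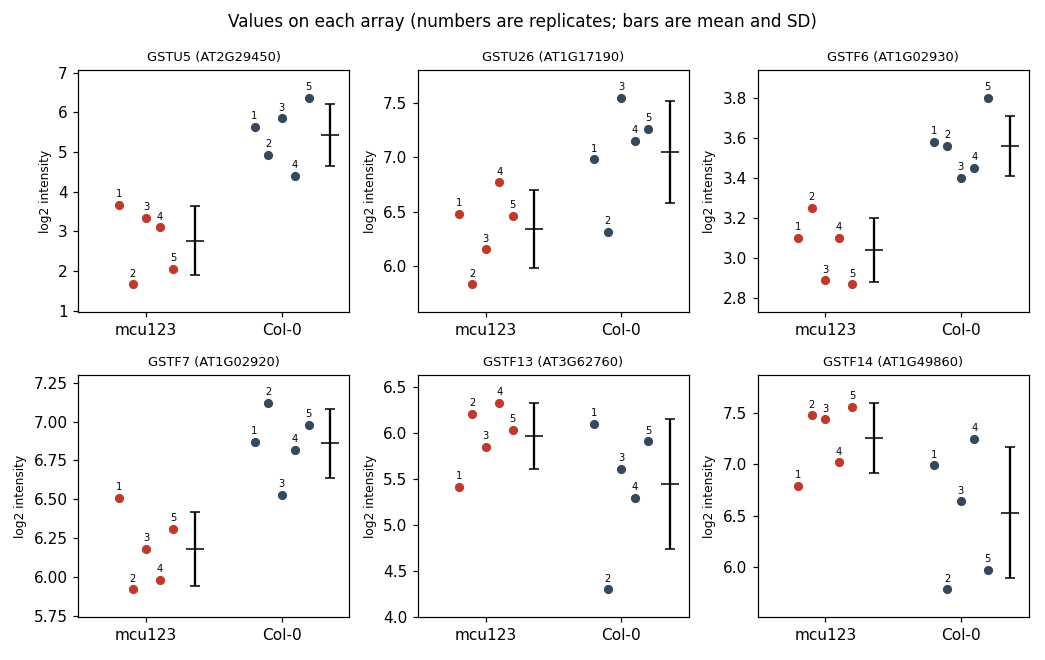
Log2 intensity of 6 members on each array, with mcu123 on the left and Col-0 on the right of each panel, replicate numbers at the points, and the mean and SD (n = 5) as a black bar. The axes do not start at 0 and differ between panels. The genotypes do not overlap for GSTU5, GSTF6 and GSTF7, and they overlap for GSTU26, GSTF13 and GSTF14.

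Over the whole family, 29 of 39 members (74.4%) had a lower mean in mcu123, where 47.3% of all genes did. The median log2 difference was -0.20 over the members and 0.01 over all genes, and it was -0.10 without Col-0 replicate 3. No member passed the limma test (adjusted p from 0.065 upward), where 0.0431% of all genes did, 12 in number. The count of 0 became 1, with GSTU5, in the 3 fits named above. The count over all genes rose in them too, from 12 to 35 with a trended and robust prior. It was 30 with array weights and 16 without mcu123 replicate 1. At an unadjusted p under 0.05 there were 6 members (15.4%), where 7.46% of all genes lay under it. Of these, GSTU5, GSTU26, GSTF6 and GSTF7 were lower in mcu123, and GSTU14 and GSTF14 were higher. The groups did not overlap in 3 members, all lower in mcu123 (7.69%), where 1.02% of all genes were lower and 0.683% higher without overlap. Only GSTU5 differed at least 2-fold (2.56% of members, and 0.532% of all genes). Because the family was picked with this contrast in view, these shares describe the members and support nothing further.

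Signals of different genes cannot be compared as transcript amounts, since each rests on its own probes. Against the table median of 4.30, 23 of 39 members had a lower mean signal over the 10 arrays, 19 of 28 tau and 4 of 11 phi genes. The table gave no detection calls, so a low signal could not be told from background. In the dot plot of all members most tau genes sit left of the median line.

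**Figure D2:**
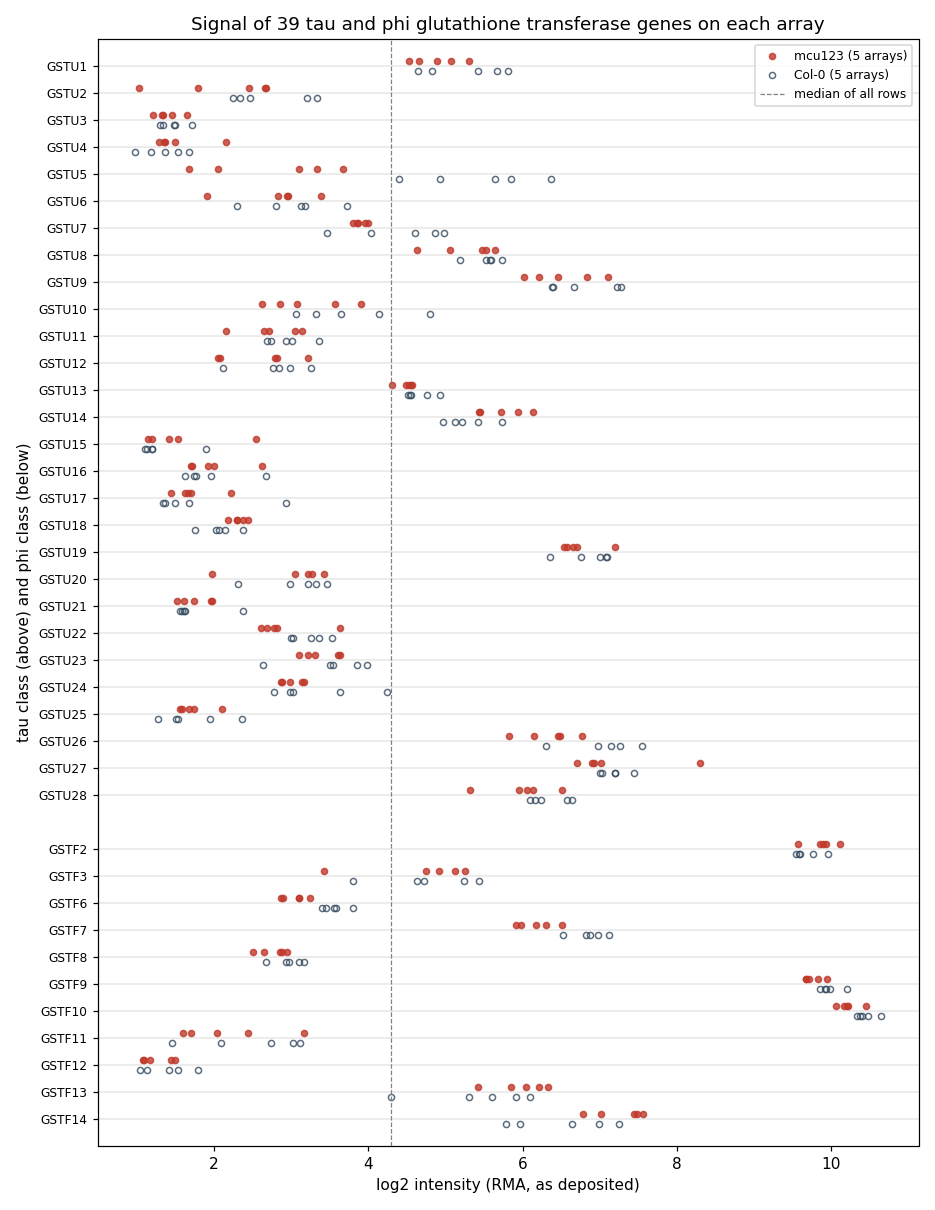
Log2 intensity of all 39 members, with 5 mcu123 arrays (filled, upper row of each pair) and 5 Col-0 arrays (open, lower row) per gene. The dashed line is the table median of 4.30. GSTU5 is the gene whose genotypes lie farthest apart, and 19 of 28 tau genes average below the line.

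The tau class had a median log2 difference of -0.19, with 21 of 28 lower means in mcu123, and the median was -0.10 without Col-0 replicate 3. The mean deviation of the tau genes from their own 10-array means was -0.11, -0.30, -0.03, -0.10 and -0.09 in mcu123 replicates 1 to 5, and 0.23, -0.10, 0.31, 0.01 and 0.17 in Col-0 replicates 1 to 5 (log2). The genotypes overlapped, since Col-0 replicate 2 lay within the mcu123 range. These tau deviations include GSTU5, which weighs on a mean. Over all members the mean log2 difference was -0.20 with GSTU5 and -0.14 without it. The phi class had a median of -0.20, with 8 of 11 lower means, and a mean of -0.08. Its array deviations were -0.09, -0.01, -0.07, -0.01 and -0.02 in mcu123, and 0.31, -0.26, 0.07, 0.09 and -0.01 in Col-0. The median over the 11 phi genes of the SD of each gene was 0.20 over mcu123 arrays and 0.22 over Col-0 arrays. The difference between the classes was not tested.

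The members fell into 9 tandem groups with 27 genes, 7 of tau and 2 of phi, and 12 genes outside them. Chromosome 1 held 21 members and chromosome 2 held 11. In 6 of the 9 groups the median difference was below 0. The GSTU1 to GSTU7 cluster lies on chromosome 2 and holds 2 other array rows. Its median log2 difference was -0.39, and -0.25 to -0.54 with each array left out. Around GSTU5 the neighbours differed far less. GSTU6 (AT2G29440), next to it on one side, averaged 2.81 ± 0.55 in mcu123 and 3.03 ± 0.52 in Col-0, a log2 difference of -0.22 (SE 0.29). GSTU4 (AT2G29460), the next transferase on the other side, averaged 1.53 ± 0.36 in mcu123 and 1.35 ± 0.28 in Col-0, a log2 difference of 0.18 (SE 0.19). GSTU4 and GSTU3 (AT2G29470, log2 difference -0.07) averaged under 2 (log2 intensity) in both mcu123 and Col-0.

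GSTU2 (AT2G29480) had log2 intensities of 2.45, 1.79, 2.66, 2.67 and 1.03 in mcu123 replicates 1 to 5, and 3.34, 3.20, 2.46, 2.34 and 2.24 in Col-0. The groups overlapped, and the log2 difference was -0.59 (SE 0.33, 95% interval -1.31 to 0.12), and -0.32 without mcu123 replicate 5. GSTU1 (AT2G29490) averaged 4.89 ± 0.31 in mcu123 and 5.28 ± 0.51 in Col-0. GSTU7 (AT2G29420), at the other end of the cluster, averaged 3.90 ± 0.08 in mcu123 and 4.39 ± 0.63 in Col-0. Its 5 mcu123 arrays spanned only 0.20 on the log2 scale, the narrowest range of any member in that genotype, while the Col-0 arrays spanned 1.52. Without GSTU5 the other 6 genes had a median log2 difference of -0.30, with 5 lower means, and -0.18 without Col-0 replicate 3.

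The genes around the cluster were compared in the same way. For 10 array rows on either side and the 2 rows inside it that are not members, 22 rows in all and chosen after their values were seen, log2 differences ran from -0.21 to 0.47. Many of these rows had signals below the table median, where a lower level could not be told from background. SAG13 was at 1.33 in mcu123 and in Col-0, and MTPB1 at 1.43 in mcu123 and 1.57 in Col-0. Others were well above it, such as TOPP1 at 8.62 in mcu123 and 8.61 in Col-0. AT2G29452, the row between GSTU5 and GSTU4, was at -0.20 (SE 0.18), with a low signal of 1.72 in mcu123 and 1.91 in Col-0. HAI3, a phosphatase of abscisic acid signalling 7 rows from GSTU5, was at 0.47 with no overlap between the groups, at a low signal of 2.29 in mcu123 and 1.82 in Col-0 (limma adjusted p = 0.34). AtIPCS3, on the other side, was at -0.20, also without overlap (limma adjusted p = 0.67).

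**Figure D3:**
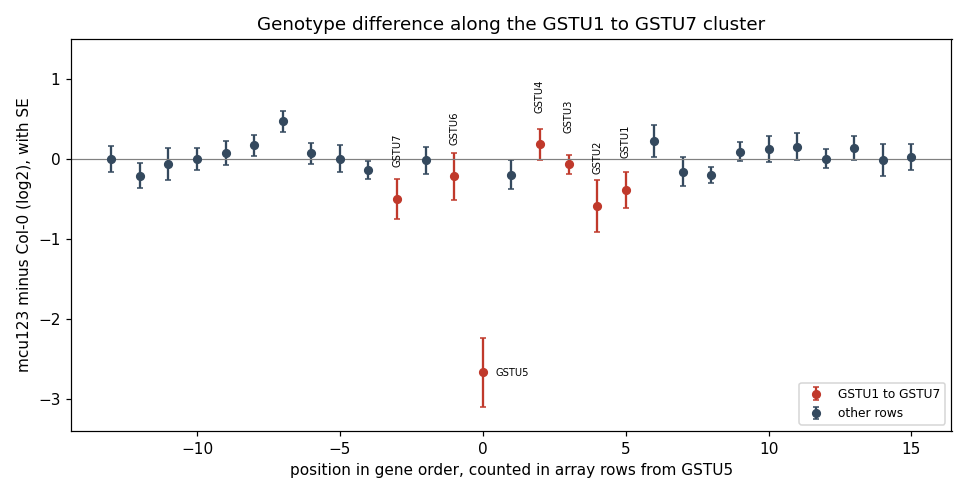
Log2 difference, mcu123 minus Col-0, with its SE from limma, for the 7 genes of the GSTU1 to GSTU7 cluster and the 22 other array rows within and around it, by position in gene order. GSTU5 lies at -2.67, and the other rows and genes lie between -0.59 and 0.47.

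The GSTU24 to GSTU26 cluster on chromosome 1 had a median log2 difference of -0.32, and -0.09 without Col-0 replicate 3. GSTU26 (AT1G17190) had log2 intensities of 6.48, 5.83, 6.15, 6.77 and 6.46 in mcu123 replicates 1 to 5. In Col-0 it had 6.98, 6.31, 7.55, 7.15 and 7.26. One Col-0 array, replicate 2 at 6.31, lay among the mcu123 values, and the other 4 lay above all of them. The means were 6.34 ± 0.36 in mcu123 and 7.05 ± 0.47 in Col-0, a log2 difference of -0.71 (SE 0.23, limma adjusted p = 0.47). GSTU24 (AT1G17170) and GSTU25 (AT1G17180), whose enzymes can conjugate the explosive trinitrotoluene, had log2 differences of -0.32 and 0.01. The GSTU24 value was -0.09 without Col-0 replicate 3, where the gene was at 4.24.

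In the GSTU19 to GSTU23 cluster the median log2 difference was -0.13, and the 5 genes ranged from -0.33 to 0.01. The median was -0.02 without Col-0 replicate 3 and -0.26 without Col-0 replicate 2. GSTU19 (AT1G78380), a tau enzyme with high activity towards model substrates, had 6.58, 7.20, 6.65, 6.54 and 6.70 in mcu123 and 7.08, 6.36, 7.01, 7.09 and 6.76 in Col-0. Its log2 difference of -0.13 (SE 0.17) was smaller than the spread within either genotype (SD 0.27 in mcu123 and 0.31 in Col-0). GSTU20 (AT1G78370), whose protein binds the jasmonate-conjugating enzyme JAR1, averaged 2.99 ± 0.58 in mcu123 and 3.06 ± 0.45 in Col-0. GSTU21 (AT1G78360), GSTU22 (AT1G78340) and GSTU23 (AT1G78320) had log2 differences of 0.01, -0.33 and -0.13.

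The 4 tau pairs showed no common direction. GSTU13 (AT1G27130), which acts in the breakdown of indole glucosinolates during immunity, averaged 4.49 ± 0.10 in mcu123 and 4.66 ± 0.18 in Col-0. Its tandem partner GSTU14 (AT1G27140) differed the other way, at 5.74 ± 0.31 in mcu123 and 5.29 ± 0.29 in Col-0, a log2 difference of 0.44 (SE 0.18, limma adjusted p = 0.60), the highest of the tau class. GSTU11 (AT1G69930) and GSTU12 (AT1G69920) were at -0.21 and -0.20. GSTU15 (AT1G59670), GSTU16 (AT1G59700), GSTU17 (AT1G10370) and GSTU18 (AT1G10360) all averaged under 2.4 (log2 intensity) in mcu123 and in Col-0. Their differences were 0.26, 0.03, -0.03 and 0.25 on the log2 scale. GSTU17, listed in the reference as ERD9 for its early response to dehydration, had 1 high Col-0 array, replicate 5 at 2.93, against 1.34 to 1.67 in the other Col-0 arrays.

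The 5 tau genes outside clusters all had lower means in mcu123, with a median log2 difference of -0.26, and -0.14 to -0.37 with each array left out. GSTU10 (AT1G74590) had log2 intensities of 3.90, 2.62, 2.85, 3.57 and 3.07 in mcu123 and 4.14, 4.80, 3.32, 3.06 and 3.65 in Col-0. The groups overlapped, and the log2 difference of -0.59 (SE 0.33) was -0.34 without Col-0 replicate 2. GSTU8 (AT3G09270), GSTU9 (AT5G62480) and GSTU28 (AT1G53680) were at -0.26, -0.26 and -0.35. GSTU27 (AT3G43800) had 6.90, 7.02, 8.30, 6.93 and 6.70 in mcu123 and 7.20, 7.45, 7.00, 7.03 and 7.20 in Col-0. Its log2 difference of -0.01 was -0.29 without mcu123 replicate 3, the highest array. Over the 16 alternative fits it ran up to 0.11 and turned its sign in 5, so its place among the lower means was not stable.

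**Figure D4:**
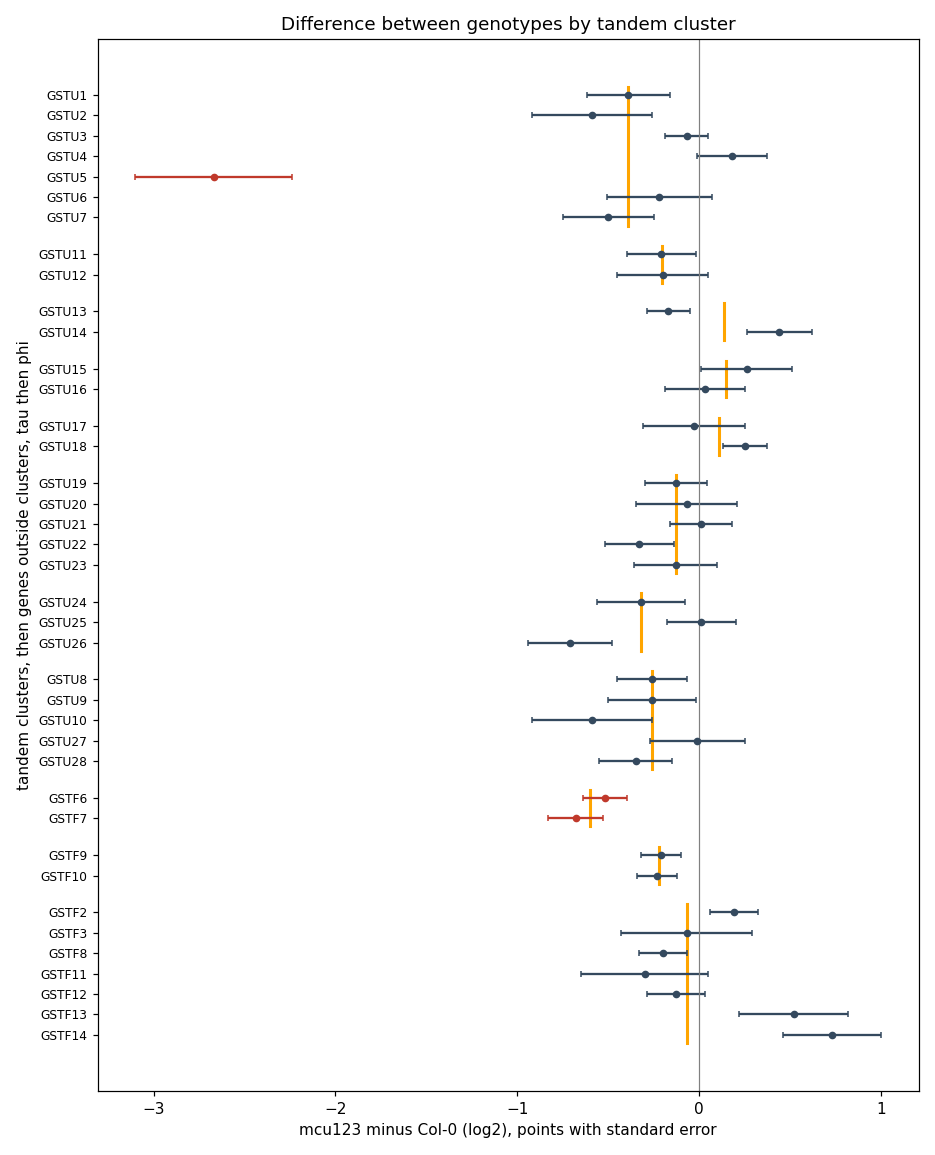
Log2 difference, mcu123 minus Col-0, of each member with its SE from limma (n = 5 per genotype), by tandem cluster, with the genes outside clusters last in each class. Orange bars are group medians and red points are the 3 genes whose genotypes do not overlap. GSTU5 lies at -2.67, and the other 38 genes lie between -0.71 and 0.73.

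In the phi class the neighbouring genes GSTF6 and GSTF7 on chromosome 1 were both lower in mcu123. GSTF7 (AT1G02920) had log2 intensities of 6.51, 5.92, 6.18, 5.98 and 6.31 in mcu123 replicates 1 to 5, and 6.87, 7.12, 6.53, 6.82 and 6.98 in Col-0. The groups did not overlap, but the highest mcu123 array and the lowest Col-0 array were close, at 6.51 and 6.53. The log2 difference was -0.68 (SE 0.15), or 1.60-fold lower (limma adjusted p = 0.18). GSTF6 (AT1G02930), which conjugates glutathione to an indole intermediate in the synthesis of the defence compound camalexin, had 3.10, 3.25, 2.89, 3.10 and 2.87 in mcu123 and 3.58, 3.56, 3.40, 3.45 and 3.80 in Col-0. Again every mcu123 array lay below every Col-0 array, with a log2 difference of -0.52 (SE 0.12), or 1.43-fold lower (limma adjusted p = 0.22). The spread within each genotype was small for both genes, at most 0.24 (SD). The pair's median, -0.60, stayed between -0.56 and -0.66 with each array left out. Of the pair only GSTF7, at -0.68, had a mean signal above the table median. GSTF5 (AT1G02940) and GSTF4 (AT1G02950), phi genes outside the set with neighbouring locus codes, overlapped between genotypes. Their log2 differences were 0.19 (SE 0.22) and -0.08 (SE 0.18). Both had low signals, GSTF5 at 1.62 in mcu123 and 1.43 in Col-0, and GSTF4 at 2.63 in mcu123 and 2.71 in Col-0. GSTF6 and GSTF7 are close copies, so probes of one may read the other, and the same holds for GSTF2 and GSTF3.

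GSTF9 and GSTF10, a phi pair on chromosome 2, gave nearly equal differences. GSTF10 (AT2G30870), whose protein binds the receptor kinase BAK1, had log2 intensities of 10.17, 10.06, 10.45, 10.21 and 10.22 in mcu123 and 10.40, 10.33, 10.65, 10.38 and 10.48 in Col-0. GSTF9 (AT2G30860) had 9.67, 9.83, 9.95, 9.71 and 9.67 in mcu123 and 9.98, 9.86, 9.92, 9.93 and 10.21 in Col-0. In both genes mcu123 replicate 3 was the one mcu123 array within the Col-0 range, and without it the groups did not overlap, where 693 of all genes were then lower without overlap, against 284 with all arrays. The log2 differences were -0.23 (SE 0.11) for GSTF10 and -0.21 (SE 0.11) for GSTF9, with limma adjusted p-values of 0.70 and 0.73.

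The 7 phi genes outside pairs had a median log2 difference of -0.07, which was 0.25 without mcu123 replicate 3. They included the members with the highest positive differences. GSTF14 (AT1G49860) had log2 intensities of 6.79, 7.48, 7.44, 7.02 and 7.56 in mcu123 and 6.99, 5.78, 6.64, 7.25 and 5.97 in Col-0. The groups overlapped, and the log2 difference was 0.73 (SE 0.27, 1.66-fold higher, limma adjusted p = 0.56), and 0.46 with array weights. GSTF13 (AT3G62760) had 5.42, 6.21, 5.85, 6.33 and 6.04 in mcu123 and 6.10, 4.30, 5.61, 5.30 and 5.91 in Col-0. Its log2 difference of 0.52 (SE 0.30) was 0.24 without Col-0 replicate 2, the single low array. The 95% interval of GSTF13, -0.13 to 1.17, included 0.

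GSTF2 (AT4G02520), which binds indole compounds such as camalexin as well as acting as an enzyme, had 9.94, 10.11, 9.57, 9.90 and 9.85 in mcu123 and 9.96, 9.60, 9.59, 9.54 and 9.76 in Col-0. The groups overlapped, with a log2 difference of 0.19 (SE 0.13). GSTF3 (AT2G02930), a close relative of GSTF2, had 5.13, 5.26, 3.42, 4.92 and 4.75 in mcu123 and 5.44, 4.63, 5.24, 4.72 and 3.80 in Col-0. Its log2 difference of -0.07 became 0.25 without mcu123 replicate 3, the lowest array. GSTF8 (AT2G47730), an early stress gene, GSTF11 (AT3G03190), linked to aliphatic glucosinolates, and GSTF12 (AT5G17220), needed for anthocyanin storage in the vacuole, had log2 differences of -0.20, -0.30 and -0.13 at mean signals under 3.

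The other genes of glutathione metabolism and of related pathways were taken from lists written with earlier results of these data known. One list of 14 genes held glutathione transferases of other classes and the phi genes GSTF4 and GSTF5, which were outside the set. In it 11 genes had lower means in mcu123 and none passed. The median log2 difference was -0.16, and -0.07 without mcu123 replicate 2. GSTL2, a lambda-class gene, averaged 5.13 ± 0.22 in mcu123 and 5.61 ± 0.32 in Col-0, and GSTZ2, a zeta-class gene, averaged 4.60 ± 0.31 in mcu123 and 4.90 ± 0.26 in Col-0. The difference between this list and the tau and phi members was not tested.

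Genes that make and recycle glutathione had a median log2 difference of 0.00 over 4 genes, and none passed. GSH1, which encodes the first enzyme of glutathione synthesis, averaged 8.82 ± 0.09 in mcu123 and 9.12 ± 0.12 in Col-0 without overlap between the groups (limma adjusted p = 0.51). GR1, a glutathione reductase gene, had a log2 difference of 0.19. For conjugate transport and turnover, 4 of 8 genes had lower means and the median was -0.10. ABCC4, an ABC transporter gene, averaged 5.25 ± 0.30 in mcu123 and 4.69 ± 0.24 in Col-0, higher without overlap (limma adjusted p = 0.40). PCS1, phytochelatin synthase, was at -0.34 (SE 0.15).

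TGA factors, through which many tau and phi genes are induced, and genes of the xenobiotic response had lower means in 12 of 14 cases, with a median log2 difference of -0.10 and none past the test. UGT73B3, a stress-induced glucosyltransferase gene, averaged 3.12 ± 0.27 in mcu123 and 3.87 ± 0.59 in Col-0. ANAC102, a NAC transcription factor gene, had a log2 difference of -0.83 (SE 0.38). TGA2, TGA5 and TGA6 themselves were at -0.07, -0.14 and -0.07.

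Indole glucosinolate and camalexin genes, whose pathway uses glutathione conjugates, had a median log2 difference of -0.43, with 11 of 12 lower means. None passed over all genes. GGP1, a peptidase that trims the glutathione conjugates of this pathway, averaged 8.00 ± 0.55 in mcu123 and 8.93 ± 0.25 in Col-0 (limma adjusted p = 0.27), and it passed without mcu123 replicate 3 (limma adjusted p = 0.035). CYP83B1, an indole glucosinolate enzyme, averaged 9.58 ± 0.26 in mcu123 and 10.14 ± 0.15 in Col-0 without overlap. CYP71A13, of camalexin synthesis, was the exception, at 1.43 ± 0.20 in mcu123 and 0.93 ± 0.19 in Col-0, higher without overlap but near the bottom of the scale (limma adjusted p = 0.32). PAD3, the last enzyme of camalexin synthesis, was at 1.81 in mcu123 and 1.83 in Col-0. Aliphatic glucosinolate genes had a median of 0.02 over 9 genes, with CYP83A1 at 0.49 and MAM1 at 0.29. Anthocyanin genes had a median of 0.12 over 10 genes, with CHS at 0.34 and F3H at 0.29, and none of either list passed.

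A list of rapid wound and oxidative response genes was set beside the family, because many transferases respond to the same stimuli. Means were lower in mcu123 for 8 of 8 genes, the median log2 difference was -0.94, and none passed the test. LOX3 and AOS, of jasmonate synthesis, were at -1.33 (SE 0.28) and -0.97 (SE 0.22), with limma adjusted p-values of 0.17 and 0.22. The summed log2 level of the list ran from 51.7 to 59.3 over mcu123 arrays and from 54.2 to 69.7 over Col-0 arrays. The part of this response in the differences of the transferases was not tested.

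**Figure D5:**
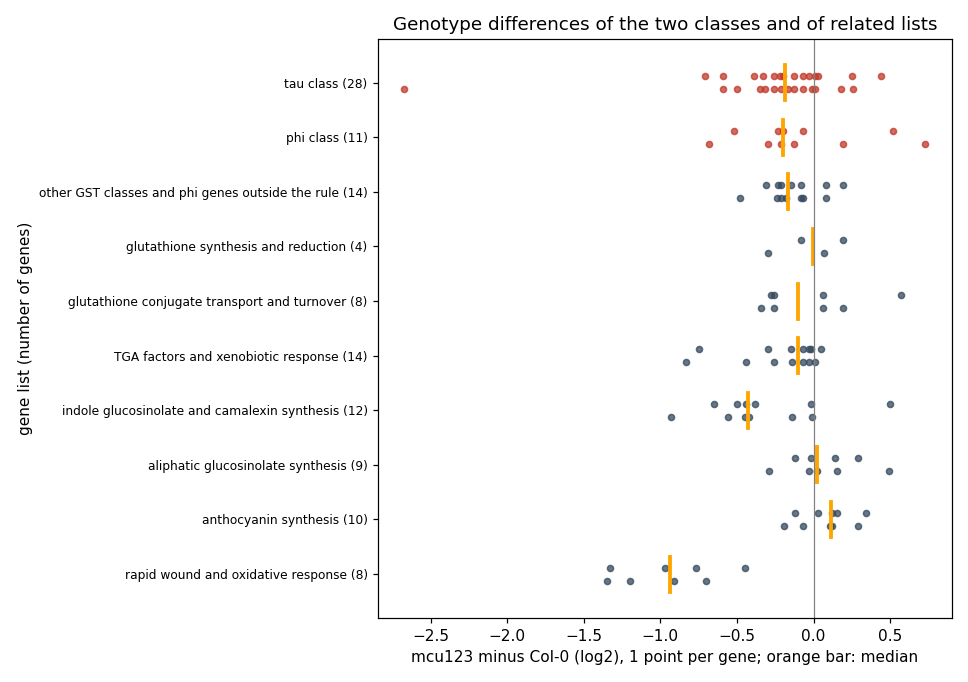
Log2 difference, mcu123 minus Col-0, of each tau and phi gene (red) and of the genes of 8 related lists (dark), with list medians as orange bars and list sizes in brackets. The medians are -0.19 for tau, -0.20 for phi, -0.43 for indole glucosinolate and camalexin genes and -0.94 for wound and oxidative response genes.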

How the data were processed

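Each of 10 arrays held biotin-labelled RNA from pooled Arabidopsis roots, 5 of mcu123 and 5 of Col-0. The authors deposited log2 intensities, made with RMA per the submitters' processing notes. The array model, probe grouping and software version were not stated in the sources used here. Sorted values were identical in all columns, as quantile normalisation gives, and no pair of columns was identical. Genotypes were compared for every gene in R 4.3.3 using limma 3.58.1 (lmFit, eBayes, genotype as the only term, two-sided), with Benjamini-Hochberg adjustment over 27826 genes and a threshold of 0.05, and no gene was dropped. The fit was tested on simulated data with the spread of these arrays and 200 genes changed per run. There 11.2% of genes changed by 0.5 (log2) passed, and 70.8% of those changed by 1.0. A gene that did not pass may therefore still differ by a small amount. All 39 loci matched the RefSeq table of TAIR10.1, which was used for names and gene order only.

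Values in every sample are given for members called, members without overlap, the 4 of largest difference and 3 of highest signal in each class, and the 3 of widest range within a genotype. In related lists the 2 genes of smallest p are named, and further genes were named after their values were seen. The members and lists were chosen with earlier results of these data known. The alternatives were cyclic loess, median centring, dropping the dimmest 30% of genes, array weights, a prior that was trended and robust, a block on replicate number, and leaving out each array. No protein sequence was used here. No scan date was given, so no batch was tested. The number of arrays limits the precision.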

Additional observations from a re-analysis of the deposited data

Results flagged for a closer look

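Of 106 sets of 5 arrays (39 members and 14 means over the family, its classes, its clusters and the tau and phi genes outside clusters, in each genotype), 15 held an array far from the other 4, where chance gives about 5.3. The 14 means are built from the same 39 members, so the sets are not independent, and 15 against 5.3 is no test. The share in parentheses is the gap to the nearest array over the whole range. Of the 15, 5 were mcu123 replicate 3, 3 mcu123 replicate 2, 2 each mcu123 replicate 5 and Col-0 replicate 3, and 1 each mcu123 replicate 1, Col-0 replicate 1 and Col-0 replicate 5.

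In mcu123 replicate 3, GSTU27 was high at 8.30 against 6.70 to 7.02 in the other mcu123 arrays (0.796), GSTU22 was high at 3.63 against 2.61 to 2.81 (0.804), and GSTF3 was low at 3.42 against 4.75 to 5.26 (0.72). The mean deviation of GSTF9 and GSTF10 was also high there (0.862), as was that of GSTU17 and GSTU18 (0.746). The same array had the highest summed level of the nitrate and nitrogen markers, 38.5 against 27.7 to 29.4 in the other mcu123 arrays. The part of nitrogen state in the transferase values was not tested.

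In mcu123 replicate 2, GSTU19 was high at 7.20 (0.754), GSTU20 low at 1.98 (0.743) and GSTU4 high at 2.16 (0.762). GSTU15 was high at 2.54 in mcu123 replicate 5 (0.726) and at 1.90 in Col-0 replicate 3 (0.881), and the GSTU15 and GSTU16 mean was high in the same arrays (0.81 and 0.779). The GSTF6 and GSTF7 mean was highest in mcu123 replicate 1 (0.787). GSTU21 was high at 2.38 in Col-0 replicate 1 (0.925), and GSTU17 at 2.93 in Col-0 replicate 5 (0.794).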

How the results depend on the processing

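All 615 member differences under the 16 alternative fits moved by less than the spread between replicates, and 31 of 39 members kept their sign in all of them. The size of these moves was bounded in advance for most fits, so it is no test. Some fits left the differences as they were, and leaving out 1 array cannot move a mean by the whole spread. The count of all genes past the threshold, 12, was 7 without the dimmest 30% of genes, 35 with a trended and robust prior, 30 with array weights, 8 with the replicate block and 5 to 22 with 1 array left out. The count of members past it, 0, was 1 with a trended and robust prior and with array weights, 0 with the replicate block and 0 to 1 with 1 array left out. The adjusted p of GSTU5, 0.065, was 0.027 with a trended and robust prior, 0.046 with array weights, 0.18 with the replicate block and 0.049 to 0.19 with 1 array left out. Members without overlap numbered 3 to 6 lower and 0 to 2 higher with 1 array left out, while over all genes the 284 lower and 190 higher became 355 to 693 lower and 277 to 749 higher: GSTU7 and GSTU26 joined without Col-0 replicate 2, GSTU22, GSTF9 and GSTF10 without mcu123 replicate 3, and GSTU14 and GSTU18 (higher) without Col-0 replicate 3. Related genes past the threshold, 0, were 0 to 1 with 1 array left out. The median of the 7 phi genes outside pairs, -0.07, was -0.15 to 0.25 with 1 array left out and 0.35 over the 4 with signal above the table median; that of GSTU24 to GSTU26, -0.32, was -0.71 over GSTU26 alone, the 1 gene above it, and -0.46 to -0.09 with 1 array left out. Medians with 1 array left out were -0.18 to 0.20 for aliphatic glucosinolate, 0.07 to 0.13 for anthocyanin and -0.12 to -0.05 for conjugate transport genes (-0.26 without the dimmest 30%). Deviations of same-numbered arrays correlated at -0.21 to 0.09 and 0 of 5 numbers matched best, so the numbers were not taken as pairs, and the replicate block changed no call among the members. GSTU15 to GSTU18 had no genes left without the dimmest 30%.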
